A study of Homo sapiens with 24 samples.

Results

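Galectins are proteins that bind β-galactose-containing sugar chains, and 7 genes of this family and its surroundings were followed across 3 established human acute myeloid leukaemia lines. They were LGALS1, LGALS2, LGALS3, LGALS3BP, LGALS8, LGALS9 and LGALS12, chosen by name out of 25680 genes in each expression table. They were picked with earlier results of these data in view, because LGALS2 was among the largest increases with the drug combination in MV411. The difference between the combination and DMSO is therefore given as a description, with no test, and so is every LGALS2 comparison that uses the combination libraries.

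The study asked how blocking the menin-MLL contact and blocking the FLT3 kinase act alone and together, and measured polyadenylated RNA in 24 libraries forming 8 groups of 3. MV411 cells received the combination of MI-503 (2.5 µM, 3 days) and AC220 (3 nM, 24 hours), AC220 alone, MI-503 alone, or DMSO, each single agent at the dose and time used in the combination. MOLM13 and OCI-AML3 cells received MI-503 (2.5 µM, 4 days) or DMSO (4 days). For MV411 the time in DMSO is not given, and the same DMSO group served every treatment. MI-503 is an inhibitor of the binding of menin to MLL proteins, and AC220 (quizartinib) is a FLT3 kinase inhibitor. MV411 and MOLM13 are known to carry an MLL fusion together with an internal tandem duplication in FLT3, whereas OCI-AML3 is known for an NPM1 mutation. Each line stands for 1 patient's leukaemia, and AC220 was given to MV411 alone.

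Galectins lack a classical signal peptide. They act inside the cell, in the cytosol and nucleus and at damaged lysosomes, and outside it, where they cross-link glycoproteins at the cell surface. Prototype galectins (galectin-1 and galectin-2) have 1 carbohydrate recognition domain and form dimers. Galectin-3 is the chimera type, with a long flexible tail that allows it to form larger assemblies. Galectin-8, galectin-9 and galectin-12 are tandem-repeat galectins with a pair of linked domains. LGALS3BP encodes a secreted glycoprotein bound by galectin-3 and is itself no galectin. In acute myeloid leukaemia, galectin-9 is known as a ligand of the surface receptor TIM-3 (HAVCR2), and galectin-12 is known from fat cells and myeloid cells.

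The genes lie at 5 chromosomes on GRCh38 in the RefSeq annotation. LGALS1 (chr22:37675636-37679802, plus strand) and LGALS2 (chr22:37570248-37580087, minus strand) lie in the same region of chromosome 22. LGALS3 lies at chr14:55129252-55145430 on the plus strand. LGALS3BP (chr17:78971255-78979923, minus strand) and LGALS9 (chr17:27631188-27649560, plus strand) are on chromosome 17. LGALS8 lies at chr1:236518214-236552981 and LGALS12 at chr11:63506084-63516772, both on the plus strand. RefSeq promoter windows of the 250 bases before the start site matched 5 of the 7 genes. LGALS1 and LGALS12 were the other two. Shown here, as read on the gene's own strand, are those of LGALS2 (chr22:37580088-37580337), whose RNA changed most, of LGALS3BP (chr17:78979924-78980173), which like LGALS2 rose with each single drug, and of LGALS3 (chr14:55129002-55129251), which fell with each. Capitals mark matches to the motifs named after them.
LGALS2: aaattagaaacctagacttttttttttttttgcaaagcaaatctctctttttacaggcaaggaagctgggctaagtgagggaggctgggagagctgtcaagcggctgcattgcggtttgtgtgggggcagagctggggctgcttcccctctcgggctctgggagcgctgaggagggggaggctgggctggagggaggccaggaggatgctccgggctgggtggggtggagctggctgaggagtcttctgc
LGALS3BP: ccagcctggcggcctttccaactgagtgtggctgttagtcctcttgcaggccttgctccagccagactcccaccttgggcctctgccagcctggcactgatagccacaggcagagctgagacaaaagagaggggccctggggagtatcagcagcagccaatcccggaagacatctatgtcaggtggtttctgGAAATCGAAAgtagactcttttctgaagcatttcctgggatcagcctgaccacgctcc
LGALS3: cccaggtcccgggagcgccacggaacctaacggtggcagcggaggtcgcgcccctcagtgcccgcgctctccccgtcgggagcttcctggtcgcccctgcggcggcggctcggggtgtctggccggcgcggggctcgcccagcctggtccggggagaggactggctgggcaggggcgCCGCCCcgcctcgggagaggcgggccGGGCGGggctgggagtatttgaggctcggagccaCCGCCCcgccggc
Both strands were searched for the letters of 5 motifs. The STAT motif was TTCNNNGAA. The PU.1 motif, read by a factor of myeloid cells, was GAGGAA. The GC box, bound by SP1-type factors, was GGGCGG. The box named TATA was searched as TATAAA. The interferon-response motif was a pair of GAAA words with any 2 bases between them. No motif overlapped another in these windows. The LGALS2 window held none of the 5 motifs, which says only that these letters are not in this window. LGALS3BP held 1 interferon-response match, GAAATCGAAA, beginning 58 bases before the start, and 3.02% of 35116 promoter windows of this length held that motif. LGALS3 held 3 GC box matches, at 73, 47 and 13 bases before the start, and 42.6% of windows held at least 1. The shares of windows with the other motifs were 6.57% for STAT, 23.6% for PU.1 and 10.7% for TATA. A match is a description of the letters and not a binding site.

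Library depth, the sum of recovered reads assigned to genes, was 23168887 to 26596469 in MV411, 23281330 to 27240357 in MOLM13 and 44364964 to 72994481 in OCI-AML3. Values below are normalised read counts (reads divided by 1 size factor per library). The 8 myeloid markers checked (CD33, MPO, LYZ, SPI1, CEBPA, CSF3R, PTPRC and ITGAM) each reached at least 1 RPM (reads per 1000000 recovered reads) in every group. Of 3 erythroid and 3 epithelial markers, none exceeded a summed 0.0396 RPM in MV411. Of the 5 T and NK cell markers, 1 (NKG7) reached 1 RPM there. The sum of these 5 ran from 34.9 RPM with DMSO to 97.5 RPM with the combination. Of 3 B cell markers, 2 reached 1 RPM in MV411 with DMSO, with a sum of at most 5.27 RPM. OCI-AML3 libraries held up to 8.35 summed RPM of the erythroid and up to 8.84 of the fibroblast markers. Since these are bulk samples, fewer cells of a type and less RNA per cell cannot be told apart. Differences are on the log2(value + 1) scale with their standard error, and the test was limma with Benjamini-Hochberg adjustment over all genes tested, at 0.05.

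LGALS2, galectin-2, was the galectin with the widest range in MV411. Its normalised read counts were 540, 515 and 499 with the combination, 265, 247 and 251 with AC220, 53.1, 55.5 and 64.3 with MI-503, and 14.3, 16.1 and 11.7 with DMSO. The 4 groups did not overlap, and every combination library stood above every AC220 library. The combination minus DMSO difference was 5.12 ± 0.127 on the log2 scale, a fitted 34.8-fold difference. Its rank from the top by size was 5 of 14421 genes, just after TENM3 at 5.48 and just before GFRA2 at 5.08. These values chose the gene and carry no test. AC220 alone raised LGALS2 by 4.10 ± 0.127 (limma adjusted p = 8.54e-19), and 1 gene rose more. MI-503 alone raised it by 1.97 ± 0.127 (limma adjusted p = 3.51e-12), and its rank there was 84. Both contrasts share the DMSO libraries with the one that chose LGALS2, so these p-values and ranks are not independent of that choice. AC220 minus MI-503, a difference of means without DMSO or combination libraries, was 2.12 ± 0.127 (limma adjusted p = 4.32e-13), with exposures of 24 hours and 3 days. Its standard error and p-value come from the fit of all 12 MV411 libraries, so they do use those groups. The combination stood 3.15 above MI-503 and 1.02 above AC220.

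**Figure D1:**
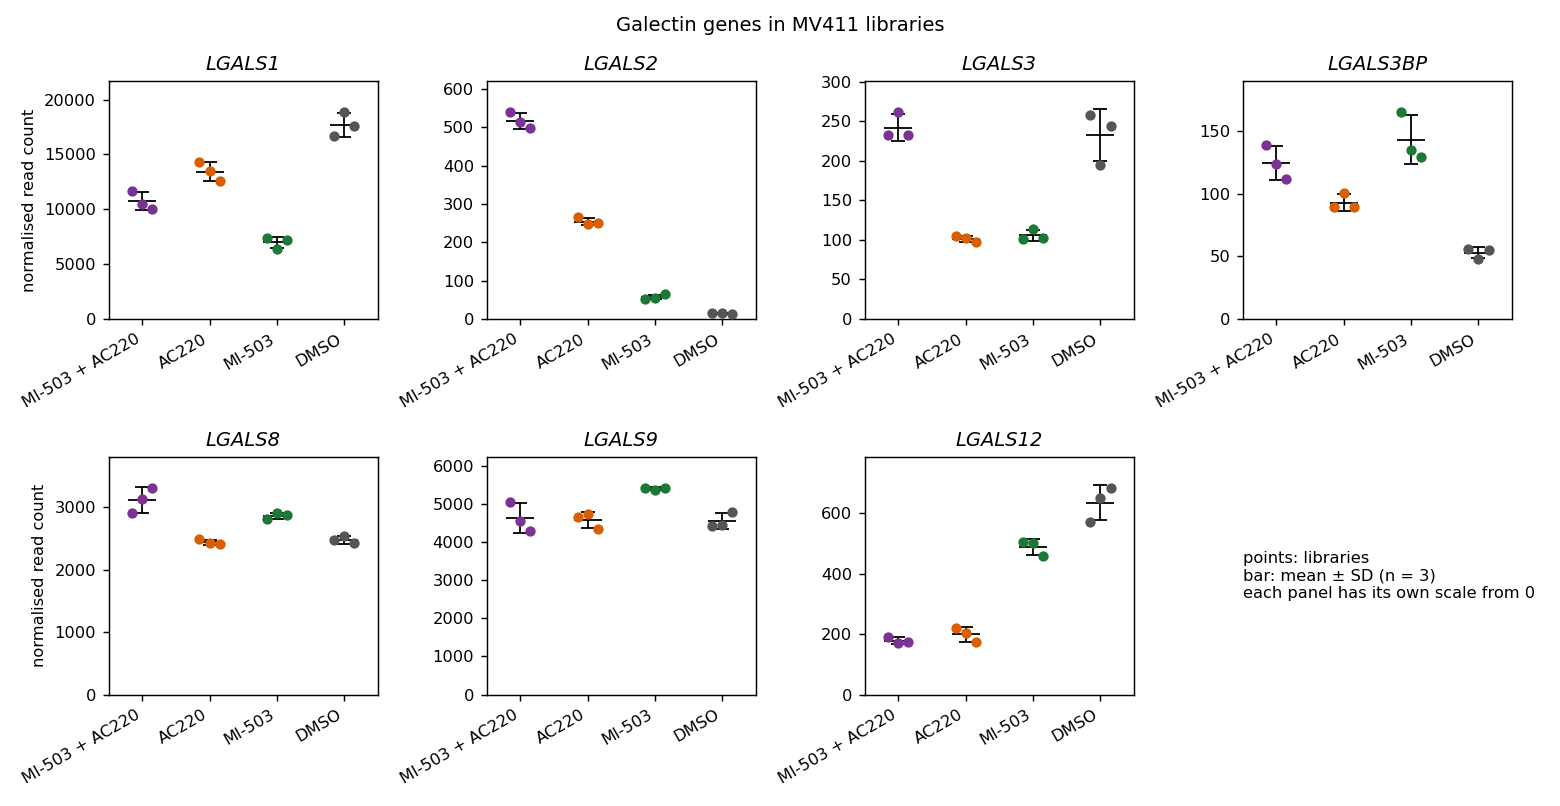
Normalised read counts (y axis, each panel from 0) of the 7 genes in the MV411 libraries treated with the combination, AC220, MI-503 or DMSO (x axis). Points are libraries and bars show the mean ± SD of 3. LGALS2 is at 499 to 540 with the combination and at 11.7 to 16.1 with DMSO, and LGALS3 lies at 96.7 to 113 with each single drug and at 195 or more with the combination and with DMSO.

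LGALS1, galectin-1, an abundant galectin known for inducing T cell death and for binding cell-surface glycoproteins, fell with each drug. Counts were 11624, 10520 and 10008 with the combination, 14315, 13456 and 12555 with AC220, 7388, 6378 and 7158 with MI-503, and 16682, 18869 and 17628 with DMSO. No pair of these groups overlapped, and MI-503 alone gave the lowest. MI-503 changed LGALS1 by -1.35 ± 0.0593 (limma adjusted p = 3.98e-15), and AC220 changed it by -0.40 ± 0.0593 (limma adjusted p = 1.94e-06). With the combination the level was 0.62 ± 0.0593 above MI-503 alone (limma adjusted p = 2.19e-09) and 0.33 ± 0.0593 below AC220 alone. That second difference, coded combination minus AC220, was -0.33 (limma adjusted p = 5.69e-05).

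LGALS3, galectin-3, which is widely expressed in monocytes and macrophages, fell with each drug given alone and stood near its DMSO level with both. Counts were 232, 261 and 232 with the combination, 105, 102 and 96.7 with AC220, 101, 113 and 102 with MI-503, and 258, 195 and 244 with DMSO. The combination libraries overlapped the DMSO libraries, and the single-drug libraries overlapped each other and lay below both. AC220 changed LGALS3 by -1.18 ± 0.111 (limma adjusted p = 1.15e-09) and MI-503 by -1.12 ± 0.111 (limma adjusted p = 6.48e-09). AC220 minus MI-503 was -0.06 ± 0.111 (limma adjusted p = 0.658). The combination was 1.25 ± 0.111 above AC220 (limma adjusted p = 1.54e-09) and 1.19 ± 0.111 above MI-503 (limma adjusted p = 1.42e-09). Its difference from DMSO was 0.07 ± 0.111, and -0.06 without DMSO replicate 2.

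LGALS3BP, the galectin-3-binding glycoprotein, rose with each drug. Counts were 139, 124 and 112 with the combination, 89.2, 100.5 and 89.2 with AC220, 165, 135 and 129 with MI-503, and 56.1, 48.2 and 54.7 with DMSO. The DMSO libraries lay below all others, and the combination and MI-503 libraries overlapped. MI-503 raised it by 1.41 ± 0.131 (limma adjusted p = 2.23e-09) and AC220 by 0.80 ± 0.131 (limma adjusted p = 7.67e-06). The combination differed from MI-503 by -0.20 ± 0.131 (limma adjusted p = 0.190). It was 0.42 ± 0.131 above AC220 (limma adjusted p = 0.00920), a call lost without combination replicate 1 (0.34, limma adjusted p = 0.0541).

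LGALS12, galectin-12, the tandem-repeat galectin of fat and myeloid cells, fell most with AC220. Counts were 191, 170 and 174 with the combination, 220, 203 and 174 with AC220, 504, 502 and 459 with MI-503, and 572, 649 and 684 with DMSO. The combination and AC220 libraries overlapped, while MI-503 lay between them and DMSO. AC220 changed it by -1.67 ± 0.0914 (limma adjusted p = 5.10e-14), and MI-503 by -0.38 ± 0.0914 (limma adjusted p = 0.00109). The combination lay 1.45 below MI-503, coded as -1.45 ± 0.0914 (limma adjusted p = 1.27e-12). Against AC220 the difference was -0.15 ± 0.0914 (limma adjusted p = 0.168), and -0.24 without AC220 replicate 3 (limma adjusted p = 0.0326).

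The tandem-repeat genes LGALS8 and LGALS9 moved by at most 0.35 in size in every MV411 contrast. Galectin-8, known for marking damaged endosomes and lysosomes for autophagy, had LGALS8 counts of 2906, 3133 and 3315 with the combination. AC220 gave 2488, 2435 and 2410, MI-503 gave 2809, 2906 and 2875, and DMSO gave 2475, 2541 and 2424. MI-503 raised LGALS8 by 0.21 ± 0.0465 (limma adjusted p = 4.99e-04), and the AC220 difference was -0.02 ± 0.0465 (limma adjusted p = 0.697), 0.0021 with equal library totals. The combination was 0.35 ± 0.0465 above AC220 (limma adjusted p = 9.39e-07). It was 0.12 ± 0.0465 above MI-503 (limma adjusted p = 0.0247), a call lost with equal library totals or without MI-503 replicate 1, combination replicate 2 or combination replicate 3 (limma adjusted p = 0.0675 to 0.159). LGALS8 shares 26.6% of its 50-base exon words with other genes, most of them with HEATR1 and the antisense gene LGALS8-AS1, and strand use in the counting is not stated, so its values are uncertain. LGALS8-AS1 averaged 139 with the combination, 99.8 with AC220, 124 with MI-503 and 95.6 with DMSO.

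LGALS9, galectin-9, the TIM-3 ligand, had counts of 5054, 4546 and 4307 with the combination, 4656, 4728 and 4346 with AC220, 5429, 5365 and 5420 with MI-503, and 4437, 4455 and 4805 with DMSO. The MI-503 libraries stood above all others, and the other 3 groups overlapped. MI-503 raised LGALS9 by 0.24 ± 0.0507 (limma adjusted p = 2.23e-04). The AC220 difference was 0.0035 ± 0.0507 (limma adjusted p = 0.953), and its sign turned when any of 4 libraries was left out. The combination minus DMSO difference was 0.02, and its sign turned without combination replicate 1 or DMSO replicate 1. The combination lay below MI-503 by a coded -0.22 ± 0.0507 (limma adjusted p = 4.23e-04). Of its exon words, 13.2% occur in other genes, with LGALS9C, AC015688.4, LGALS9DP and LGALS9B sharing the most in that order, so reads may have been split between them.

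Counts of galectins called are read against the share of all genes called, which was 42.5% or more in each MV411 contrast. MI-503 changed 7 of 7 members (4 higher, 3 lower), where 60.6% of 14421 genes passed, 29.8% higher and 30.8% lower. AC220 changed 5 of 7 (2 higher, 3 lower), against 74.9% of genes, 37.7% higher and 37.3% lower. AC220 and MI-503 differed in 6 of 7, against 68.3%. Leaving LGALS2 untested, the combination differed from MI-503 in 5 of 6 members, against 68.5% of genes, and from AC220 in 4 of 6, against 55.5%. In the combination minus DMSO contrast 79.4% of genes passed. The members' median difference was 0.21 with MI-503 and -0.02 with AC220, and that of all genes was -0.01 and 0.01. Both single-drug contrasts use the same DMSO libraries, which also took part in choosing LGALS2, a member counted as higher in both.

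The interaction measured how far the combined change from DMSO lay from the sum of the single changes on the log2 scale. It passed in 4 of 6 tested members, and 42.5% of all genes passed. LGALS3 had the largest value, 2.37 ± 0.157 (limma adjusted p = 2.66e-11). The combination level was 241, where the sum of the single changes would give 45.9. LGALS1 had 1.02 ± 0.0839 (limma adjusted p = 1.01e-09), with 10697 observed where the sum would give 5278. LGALS3BP had -0.995 ± 0.185 (limma adjusted p = 1.30e-04), with 124 observed where the sum would give 249. LGALS9 had -0.23 ± 0.0717 (limma adjusted p = 0.0127), which missed the threshold without a variance trend (limma adjusted p = 0.0638). LGALS8 (0.14 ± 0.0657, limma adjusted p = 0.0869) and LGALS12 (0.23 ± 0.129, limma adjusted p = 0.168) did not pass. For LGALS2 the combination level was 518, where the sum of the single changes (6.07) would give 998. That difference of -0.95 is a description, and -0.57 with a pseudocount of 8.

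**Figure D2:**
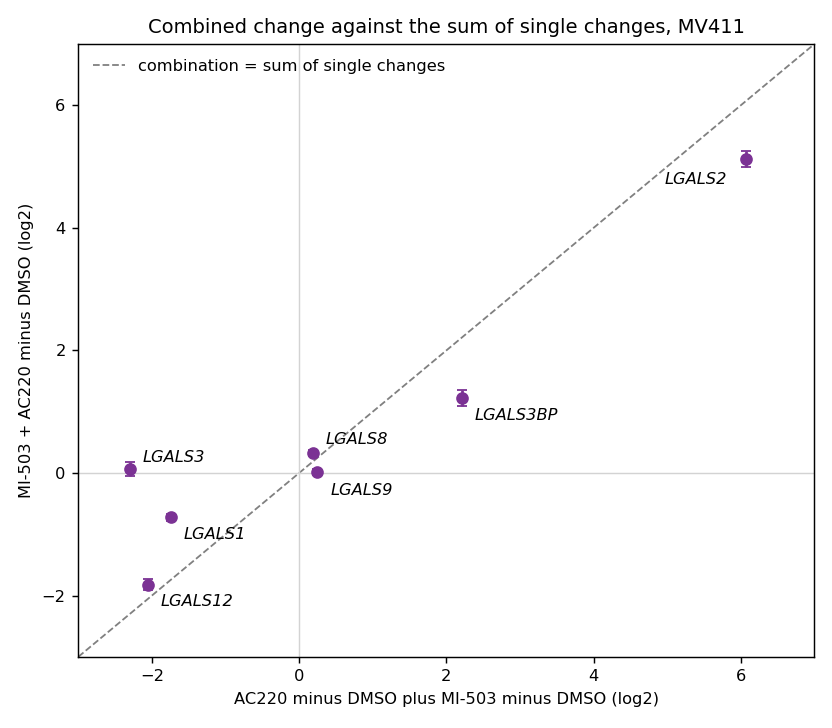
Combination minus DMSO (y axis, log2, with SE) against the sum of AC220 minus DMSO and MI-503 minus DMSO (x axis, log2) for the 7 genes in MV411; the dashed line marks equality. LGALS3 lies 2.37 and LGALS1 1.02 above the line, while LGALS2 (-0.95) and LGALS3BP (-0.995) lie below it.

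In MOLM13, MI-503 raised 6 of 6 tested members after scaling to the median shift, where 59.9% of 13391 genes passed and 29.9% were called higher. This scaling sets aside the shift of all genes seen on the deposited scale, which is labelled as normalised to spike-in RNA. LGALS3 had 357, 318 and 320 with MI-503 and 155, 152 and 161 with DMSO, a rise of 1.08 ± 0.0822 (limma adjusted p = 6.82e-09). LGALS12 had 184, 143 and 121 with MI-503 and 60.4, 47.1 and 72.6 with DMSO, a rise of 1.30 ± 0.168 (limma adjusted p = 4.51e-06). Groups did not overlap for either gene, and on the deposited scale the rises were smaller, 0.55 for LGALS3 and 0.78 for LGALS12 (limma adjusted p = 1.14e-05 and 1.43e-06). LGALS9 had 2816, 2745 and 2634 with MI-503 and 1764, 1800.5 and 1884 with DMSO, a rise of 0.59 ± 0.0364 (limma adjusted p = 4.58e-10), which was 0.06 on the deposited scale (limma adjusted p = 0.573). LGALS3BP was low, with 35.1, 37.2 and 47.0 with MI-503 and 26.0, 19.6 and 30.2 with DMSO, a rise of 0.64 ± 0.215 (limma adjusted p = 0.0166). That call was lost on the deposited scale (0.13), by DESeq2 (adjusted p = 0.0667), and without MI-503 replicate 3 or DMSO replicate 2 (limma adjusted p = 0.0880 and 0.0815). LGALS1 (0.18 ± 0.0367) and LGALS8 (0.18 ± 0.0269) rose slightly after rescaling (limma adjusted p = 4.55e-04 and 2.24e-05). On the deposited scale, where the median of all genes was -0.54, each was called lower, at -0.35 (limma adjusted p = 2.20e-04 and 1.74e-04).

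In OCI-AML3, MI-503 raised 5 of 6 tested members after the same scaling, where 65.6% of 15682 genes passed and 32.9% were called higher. LGALS3BP had 2453, 2596 and 2620 with MI-503 and 1061, 995 and 1013 with DMSO, a rise of 1.32 ± 0.0420 (limma adjusted p = 9.75e-11). LGALS9 had 959, 905 and 969 with MI-503 and 439, 421 and 445 with DMSO, a rise of 1.11 ± 0.0524 (limma adjusted p = 3.15e-09). LGALS12 had 5215, 5207 and 5209 with MI-503 and 2863, 2777 and 2838 with DMSO, a rise of 0.88 ± 0.0290 (limma adjusted p = 1.26e-10). Each of these genes had groups that did not overlap. LGALS3 rose by 0.45 ± 0.0618 (limma adjusted p = 4.00e-05), with 418 to 438 in MI-503 libraries and 303 to 323 in DMSO libraries. LGALS1 rose by 0.26 ± 0.0390 (limma adjusted p = 8.01e-05), with 8269 to 8691 in MI-503 libraries and 6677 to 7475 in DMSO libraries. LGALS8 differed by 0.05 ± 0.0301 (limma adjusted p = 0.166). On the deposited scale, where the median of all genes was -0.16, only LGALS3BP (1.16) and LGALS9 (0.96) passed. There LGALS12 at 0.72, LGALS3 at 0.29 and LGALS1 at 0.10 lost their calls (limma adjusted p = 0.0662, 0.593 and 0.881). LGALS8 was at -0.11 there.

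LGALS2 passed the filter on low values in neither of these lines, so no test across genes covers it. MOLM13 libraries held 8, 7 and 8 LGALS2 reads with MI-503 and 8, 11 and 4 with DMSO, a ratio of 1.05 with a 95% counting interval of 0.564 to 1.96. OCI-AML3 libraries held 4, 4 and 5 reads with MI-503 and 20, 11 and 8 with DMSO, a ratio of 0.394 with an interval of 0.193 to 0.753. The intervals cover counting error only, and DMSO replicate 1 of OCI-AML3 supplied 20 of the 39 DMSO reads. In MOLM13 the groups overlapped, and in OCI-AML3 they did not.

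**Figure D3:**
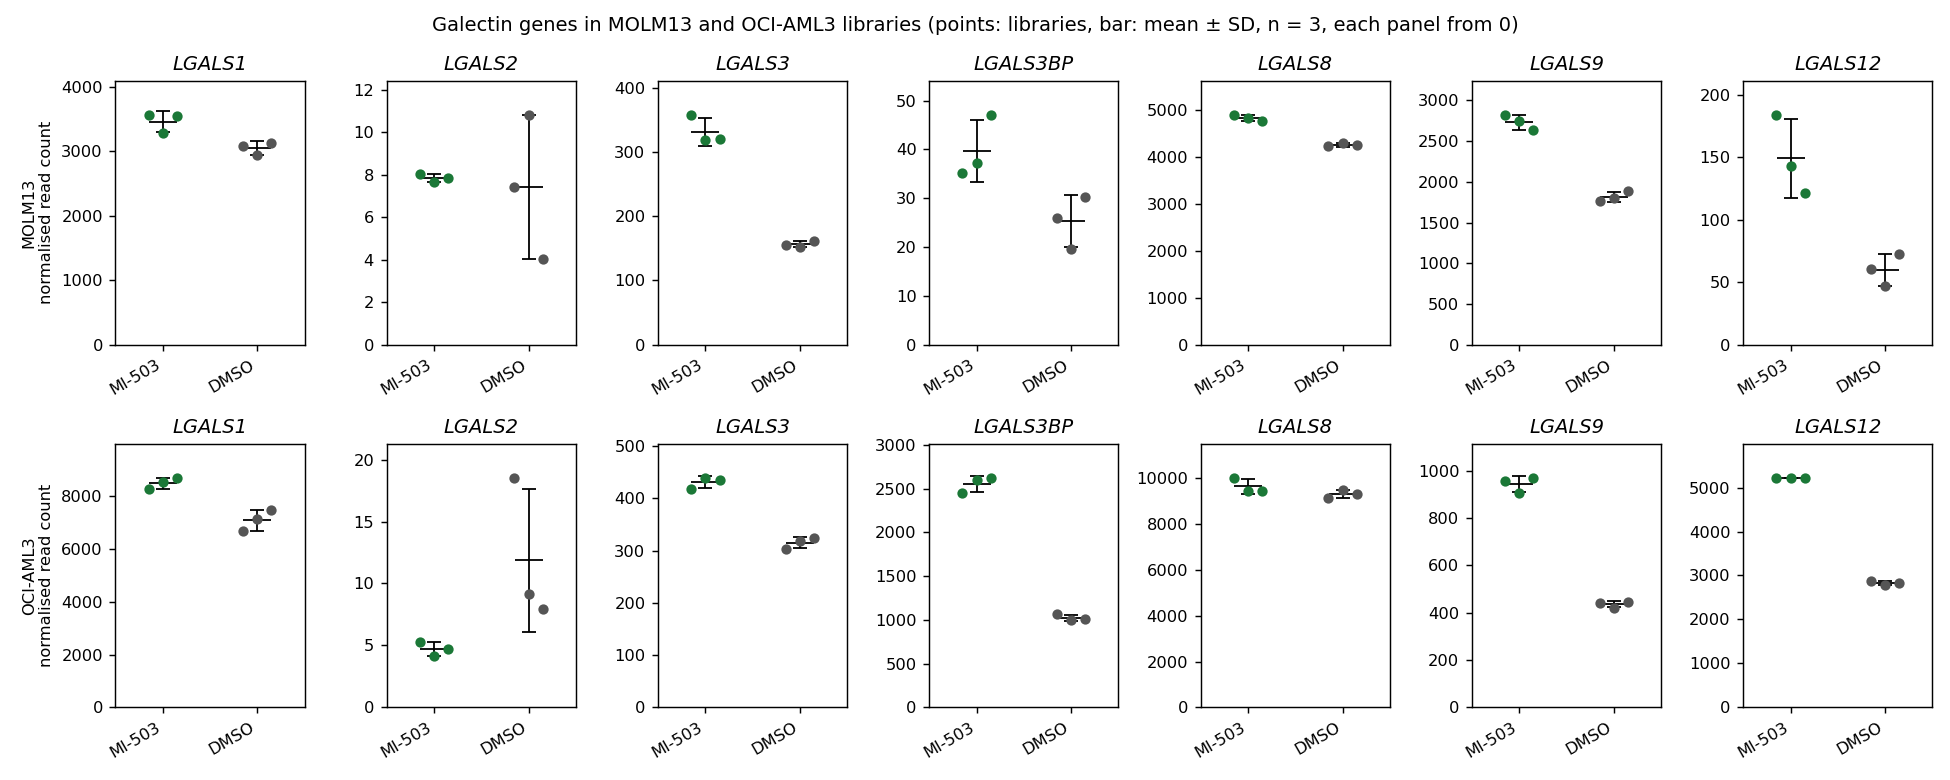
Normalised read counts (y axis, each panel from 0) of the 7 genes in MOLM13 (upper row) and OCI-AML3 (lower row) libraries treated with MI-503 or DMSO (x axis). Points are libraries and bars show the mean ± SD of 3. On the rescaled values, LGALS1, LGALS3, LGALS3BP, LGALS9 and LGALS12 are higher with MI-503 in both lines with no overlap. The share of all genes without overlap was not counted. On the deposited scale the MOLM13 groups of LGALS9 overlap, and LGALS1 is lower with MI-503 in MOLM13. LGALS2 has at most 20 reads in any library of these lines.

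The response to MI-503 differed between MV411 and the other lines for most members. MV411 minus MOLM13 passed in 5 of 6 tested members, where 57.3% of genes passed. MV411 minus OCI-AML3 passed in 5 of 6, where 63.8% did. MOLM13 minus OCI-AML3 passed in 4 of 6, where 62.9% did. LGALS3 fell in MV411 and rose in both other lines. The difference of its effects was -2.20 ± 0.146 between MV411 and MOLM13 (limma adjusted p = 7.68e-12) and -1.57 ± 0.138 between MV411 and OCI-AML3 (limma adjusted p = 5.56e-09). LGALS12 differed by -1.68 ± 0.189 between MV411 and MOLM13 and by -1.26 ± 0.0773 between MV411 and OCI-AML3 (limma adjusted p = 7.16e-08 and 2.80e-11). LGALS1 differed by -1.53 ± 0.0690 and -1.61 ± 0.0727 in the same comparisons (limma adjusted p = 6.22e-15 and 2.73e-13). LGALS3BP, which rose in all 3 lines, did not differ detectably between MV411 and OCI-AML3 (0.09 ± 0.122, limma adjusted p = 0.517), though it differed between MV411 and MOLM13 (0.77 ± 0.255, limma adjusted p = 0.0125). MV411 was exposed for 3 days and the other lines for 4, and the lines were tabulated separately, so line and exposure time cannot be told apart.

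**Figure D4:**
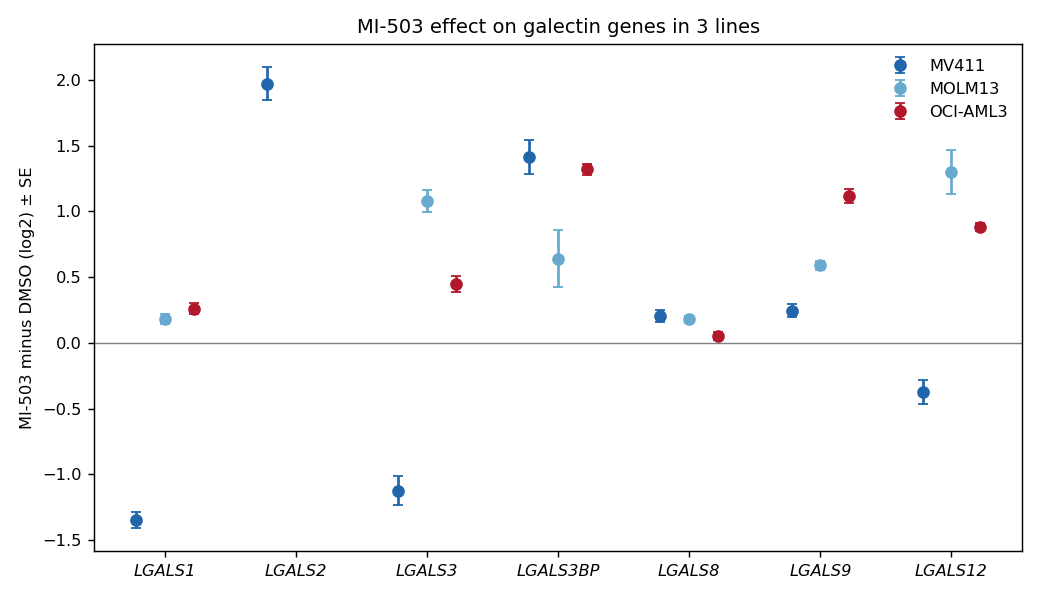
MI-503 minus DMSO (y axis, log2, with SE) of the 7 genes (x axis) in MV411, MOLM13 and OCI-AML3; LGALS2 has a value in MV411 only because it missed the filter in the other lines. LGALS1, LGALS3 and LGALS12 lie below 0 in MV411 and above 0 in MOLM13 and OCI-AML3, except that LGALS1 in MOLM13 is at -0.35 on the deposited scale.

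Levels per length of merged exons, in RPKM (RPM per kilobase of exon), placed LGALS1 first in every group. The merged length covers all annotated isoforms and was 9710 bases for LGALS8, 5714 for LGALS9 and 828 for LGALS2. The order between genes depends on these lengths. With the combination in MV411 the order was LGALS1 (377), LGALS9 (31.4), LGALS2 (24.2), LGALS8 (12.4), LGALS3 (3.90), LGALS12 (3.04) and LGALS3BP (1.35), with no neighbours overlapping. With AC220 LGALS2 was also at position 3, at 12.3, and with MI-503 at position 5, at 2.74. With DMSO LGALS2 was at position 6, at 0.666, and its libraries overlapped those of LGALS3BP (0.581). LGALS12 (11.0) and LGALS8 (10.04) overlapped there as well. In DMSO-treated MOLM13 LGALS8 (17.3) and LGALS9 (12.5) followed LGALS1 (109.5), and LGALS2 (0.353) overlapped LGALS3BP (0.278). In DMSO-treated OCI-AML3 LGALS12 (20.5) came after LGALS1 (107) and above LGALS8 (15.8), and LGALS2 was last at 0.237. The 3 tables were normalised separately, so no level was tested between lines.

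**Figure D5:**
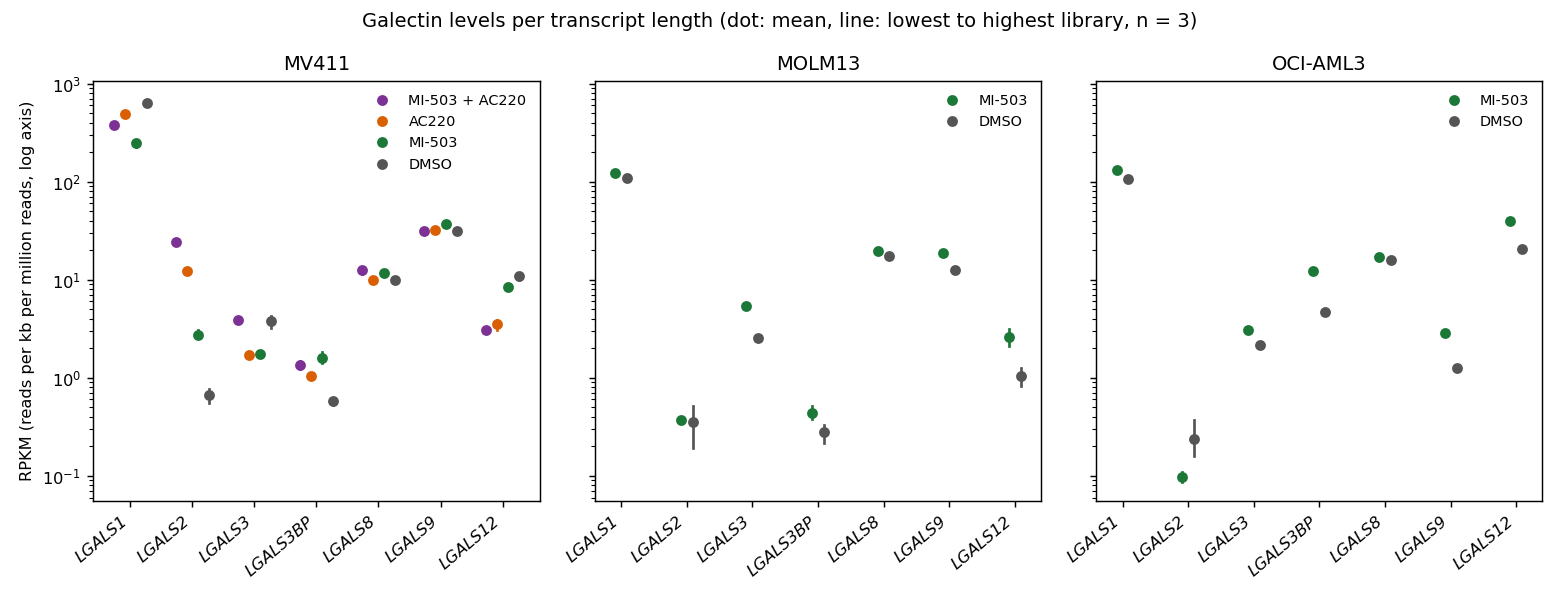
RPKM (log y axis) of the 7 genes (x axis) in each group of MV411, MOLM13 and OCI-AML3; dots are means and lines run from the lowest to the highest of 3 libraries. LGALS1 is highest in every group, and LGALS2 has a mean of 24.2 with the combination in MV411 and of 0.353 or less with DMSO in MOLM13 and OCI-AML3.

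Of 11 other galectin genes, 4 passed the filter on low values in MV411, 0 in MOLM13 and 2 in OCI-AML3, while LGALS7, LGALS7B and LGALS16 had no read in any library. LGALS9C, a near copy of LGALS9, had means of 56.4 with the combination, 55.7 with AC220, 25.9 with MI-503 and 13.98 with DMSO. It stood 1.97 ± 0.238 above DMSO with AC220 and 0.88 ± 0.238 above DMSO with MI-503. Because LGALS9C met the filter through the treated libraries, where it is high, these are values with no test. Its reads may be shared with LGALS9. LGALS4, a galectin known from gut epithelium, had means of 13.7, 9.63, 6.60 and 1.96 in the same order of groups, from 39, 30, 20 and 6 reads. In OCI-AML3 LGALS4 had 7.86 to 12.3 with MI-503 and 17.5 to 20.9 with DMSO, and since it met the filter through the DMSO libraries, these are values with no test. MI-503 raised LGALSL, which encodes a galectin-related protein, in that line (0.52 ± 0.0858, limma adjusted p = 1.71e-04).

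Among 17 glycoprotein partners of galectins, 15 were tested in MV411. AC220 raised 8 and lowered 5, with a median of 0.37, and MI-503 raised 4 and lowered 7, with a median of -0.19. The shares of all genes were 37.7% higher and 37.3% lower with AC220, and 29.8% higher and 30.8% lower with MI-503. HAVCR2, the TIM-3 receptor of galectin-9, averaged 219 with the combination, 203 with AC220, 79.8 with MI-503 and 103 with DMSO, and AC220 minus MI-503 was 1.34 ± 0.130 (limma adjusted p = 3.30e-09). MERTK, a phagocytic receptor for which galectin-3 has been described as a ligand, averaged 568 with the combination, 127 with AC220, 156 with MI-503 and 38.4 with DMSO. It rose by 1.70 with AC220 and 2.00 with MI-503 (limma adjusted p = 1.73e-12 and 3.10e-13). CD14, a monocyte co-receptor, averaged 26.0 with the combination, 0.640 with AC220, 29.6 with MI-503 and 8.81 with DMSO. CD14 met the filter in MV411 only through the MI-503 and combination libraries, where it is high. The MV411 partner counts include it and are a description in that respect. With MI-503, relative to the median shift, 7 of 12 tested partners rose and 2 fell in MOLM13, and 4 of 13 rose and 6 fell in OCI-AML3, where 59.9% and 65.6% of all genes passed in either direction.

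The enzymes that build or cap galectin-binding sugar chains also moved in both directions. Of 17 tested in MV411, AC220 raised 10 and lowered 3, and MI-503 raised 8 and lowered 4, beside 74.9% of all genes called with AC220 and 60.6% with MI-503. MGAT4A, which adds a branch to N-glycans, averaged 1101 with the combination, 333 with AC220, 609 with MI-503 and 278 with DMSO, and rose by 1.13 with MI-503 (limma adjusted p = 3.10e-11). In OCI-AML3 MI-503 lowered it by a coded -1.10 (limma adjusted p = 1.01e-10). ST3GAL4, a sialyltransferase, rose by 0.95 with AC220 (limma adjusted p = 1.40e-12). In the damaged-lysosome list, AC220 raised 4 and lowered 3 of 11, and MI-503 raised 5 and lowered 3, beside the same shares of all genes (74.9% and 60.6%). TFEB, a regulator of lysosomal genes, rose by 1.22 with AC220 and 0.56 with MI-503 (limma adjusted p = 8.05e-13 and 1.18e-06). TRIM16, a galectin-3 partner in lysosomal damage, changed by -0.87 and -1.02 with the same drugs (limma adjusted p = 2.63e-10 and 3.84e-11).

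Monocyte genes were followed as a reference list beside the galectins. Of 12 tested in MV411, MI-503 raised 9 and lowered 1, with a median of 1.59, and AC220 raised 7 and lowered 5, with a median of 0.58. Of all genes, 29.8% were called higher with MI-503 and 37.7% with AC220. Their summed level was 8291 to 8447 RPM with the combination, 3116 to 3334 with AC220, 7354 to 7749 with MI-503 and 1614 to 1668 with DMSO. Relative to the median shift, MI-503 raised 9 of 9 tested in MOLM13, where 29.9% of all genes were called higher. In OCI-AML3 it raised 4 and lowered 9 of 14, where 65.6% of all genes passed in either direction. LGALS2 was higher with AC220 than with MI-503 in MV411, while the summed monocyte level was higher with MI-503. Gene by gene, AC220 minus MI-503 was called higher in 4 and lower in 8 of the 12 monocyte genes. Of all genes, 68.3% were called there in either direction. The MV411 counts of monocyte genes include CD14, which met the filter only through the MI-503 and combination libraries, where it is high. In that respect these counts are a description. The part of the monocyte genes in the galectin values was not tested.

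Over the 12 MV411 libraries the genes whose log2 values most resembled LGALS2 were PRDM1, FYB, TTYH2, ZNF251 and GAB2, with Pearson's r of 0.998, 0.997, 0.997, 0.996 and 0.995. These are descriptions over libraries that share 4 treatments. PRDM1, a transcriptional repressor of lymphoid and myeloid cells, changed by 1.44 with AC220 and 0.75 with MI-503, and was 1.76 above DMSO with the combination. Among the members themselves LGALS2 and LGALS12 were the most opposed pair, with r = -0.966 over the same libraries. For LGALS3 the nearest gene was PPARD, a nuclear receptor, at 0.971. LGALS1 was nearest to the small GTPase genes RHOC (0.996) and RAC2 (0.995), LGALS3BP to PLXNB1 (0.980) and ZNF346 (0.980), LGALS8 to WDR19 (0.981) and AGTPBP1 (0.971), LGALS9 to MFNG (0.954) and SNRPA (0.952), and LGALS12 to SPRED2 (0.993) and SNORD86 (0.993).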

How the data were processed

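The deposited tables held a normalised signal per gene, which per the submitters' processing notes came from DESeq version 2 on hg38. Aligner, counting program and annotation are not given in the sources used here. In all 24 libraries every value (100% within 0.001 of a whole number) was a read count divided by 1 factor, so reads were recovered; 0 per-sample columns were left out. Spike-in RNA was added per the labels, and spike-in rows were not analysed here. MV411 values are labelled as normalised to spike-in RNA too, but their factors equalled median-of-ratios factors and were kept. MOLM13 and OCI-AML3 factors differed from median-of-ratios factors. Their reads were therefore divided by median-of-ratios factors, and the deposited scale is an alternative. In every line, changes on the main scale are thus relative to the median shift of genes.

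limma 3.58.1 in R 4.3.3 tested log2(value + 1), two-sided and with a variance trend. Genes had to reach 10 in at least 3 libraries, and p-values were adjusted over all of them at 0.05. The 12 MV411 libraries shared 1 fit. Line differences used the MI-503 and DMSO libraries of both lines. Run on recovered reads, edgeR 4.0.16 called 8819 genes after MI-503 and 10866 after AC220 in MV411, 8053 in MOLM13 and 10343 in OCI-AML3. DESeq2 1.42.0 called 8242, 10401, 6900 and 9508 in the same order. Fits were tried on simulated data.

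Members and lists were chosen with earlier results of these data known. List genes named are among the 3 called members with the largest changes in at least 1 comparison. LGALS8-AS1 was added after its overlap with LGALS8 was seen. Lengths are merged GENCODE exons, and sequences and coordinates are RefSeq's on GRCh38.p14. Triplicates are biological per the study's design text, but how cultures were separated is not described, so p-values measure the spread between these samples. Replicate pairs differed by more than counting noise (chi-square per degree of freedom 1.59 to 9.41 over 24 pairs).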

Additional observations from a re-analysis of the deposited data

Results flagged for a closer look

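The MI-503 effect differed between lines in 14 of 18 tested member comparisons by a test of the difference itself (limma, adjusted over all genes). Of all genes, 57.3% differed for MV411 minus MOLM13, 63.8% for MV411 minus OCI-AML3 and 62.9% for MOLM13 minus OCI-AML3. Each galectin difference is given here as a value on the log2 scale. MV411 minus MOLM13 was -1.68 for LGALS12, -1.53 for LGALS1, -0.34 for LGALS9, -2.20 for LGALS3 and 0.77 for LGALS3BP. MV411 minus OCI-AML3 was -1.26 for LGALS12, -1.61 for LGALS1, -0.87 for LGALS9, 0.16 for LGALS8 and -1.57 for LGALS3. MOLM13 minus OCI-AML3 was -0.53 for LGALS9, 0.13 for LGALS8, 0.63 for LGALS3 and -0.68 for LGALS3BP. On the deposited scale LGALS9 for MV411 minus MOLM13 turned to 0.19 and LGALS8 for MOLM13 minus OCI-AML3 to -0.24, and neither passed there (limma adjusted p = 0.0677 and 0.502). LGALS3 for MOLM13 minus OCI-AML3 (0.26) and LGALS8 for MV411 minus OCI-AML3 (0.32) also lost their calls on that scale (limma adjusted p = 0.518 and 0.424). Differences with MV411 on that scale join unlike scalings, since only the MV411 deposited factors equalled median-of-ratios factors. The MV411 libraries were exposed for 3 days and the others for 4 days, and the part of exposure time in these differences cannot be told apart from that of the line.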

How the results depend on the processing

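Over the alternatives (pseudocounts of 0.5 and 8, a minimum of 50, no filter, no variance trend, TMM factors, equal library totals, the deposited scale, edgeR, DESeq2, a replicate block, leaving out each library, and fitting only the groups compared), 1264 recomputed member values with a test kept their direction and side of the threshold, 18 lost a call, 11 gained one and 15 changed sign. Of the values given with no test, 168 kept their direction and moved by less than the spread between replicates, 4 changed sign and 3 moved further. On the deposited scale the genes called fell to 1676 in OCI-AML3 (10294 after rescaling), 2629 for MV411 minus OCI-AML3 (8577) and 3222 for MOLM13 minus OCI-AML3 (8185), and 2 galectins were called in OCI-AML3 (5) and 2 for MOLM13 minus OCI-AML3 (4). Of the genes called there, 8.08% were higher in MOLM13 (50.0% after rescaling), 36.1% in OCI-AML3 (50.1%), 89.7% for MV411 minus MOLM13 (46.3%), 65.8% for MV411 minus OCI-AML3 (49.5%) and 19.0% for MOLM13 minus OCI-AML3 (51.5%), with medians of all genes of -0.54, -0.16, 0.52, 0.16 and -0.37. Only the MV411 deposited factors equalled median-of-ratios factors, so differences between MV411 and another line on the deposited scale join unlike scalings. Signs changed on the deposited scale for LGALS1 (-0.35) and LGALS8 (-0.35) in MOLM13, LGALS8 (-0.11) in OCI-AML3, LGALS9 (0.19) for MV411 minus MOLM13 and LGALS8 (-0.24) for MOLM13 minus OCI-AML3. With equal library totals signs changed for LGALS8 with AC220 (0.0021), and for LGALS9 with the combination against DMSO (-0.0039) and against AC220 (-0.0302). For MV411 minus OCI-AML3, LGALS3BP was -0.0076 with a pseudocount of 8. Leaving out each library in turn, LGALS9 ran from -0.0205 to 0.0407 with AC220 against DMSO, from -0.0442 to 0.0711 with the combination against DMSO and from -0.0477 to 0.0676 with the combination against AC220. LGALS3 with the combination against DMSO ran from -0.0553 to 0.146, and LGALS3BP for MV411 minus OCI-AML3 from -0.0123 to 0.163. Same-numbered libraries deviated together little (correlations -0.0814 to 0.121 over 24 pairs, 1 of them over 0.1). Counting noise lowers such correlations, so they cannot show whether the numbers pair libraries weakly. With the replicate block 8701 genes were called for MI-503 in MV411 (8734 without), and LGALS12 passed for MOLM13 minus OCI-AML3 (adjusted p = 0.0409), as it also did at a minimum of 50, with edgeR and DESeq2, and without MI-503 or DMSO replicate 3 of MOLM13. The causes were not tested.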
